A study of Danio rerio with 5 samples.

Results

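Immediate-early genes and genes that slow the cell cycle were followed through single cells sorted from zebrafish embryos. The members were nfkbiaa (ENSDARG00000005481), BTG1, ZFP36L1, cdkn1a, FOS, JUNB, JUN, EGR1, IER2 and ATF3, chosen by symbol in any case and with the zebrafish endings aa, ab, a or b. These 10 names matched 12 of the 23628 gene IDs in the tables. FOS gave 2 rows (FOS and fosaa), ZFP36L1 gave 2 rows under the same symbol (ENSDARG00000016154 and ENSDARG00000021443), and EGR1 and IER2 were found as egr1 and ier2b. For ier2a and a second JUNB (ENSDARG00000104773) no row was used here. The zebrafish paralog to which each row named ZFP36L1 belongs was not given by the name table, so the rows are kept apart by their IDs. BTG1, ZFP36L1 and cdkn1a had been selected on their difference between morpholinos in these same cells, and the other members were picked with results of these data in view. Their morpholino values are therefore given as a description with no test.

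Live mCherry+ cells were sorted from runx1+23:mCherry transgenic embryos at 3 dpf, one cell per well, after dissociation with liberase, and sequenced by SORT-seq, which counts transcripts in 384-well plates by molecular barcodes. The runx1+23 enhancer drives mCherry in hematopoietic stem and progenitor cells (HSPCs). Embryos had been injected with a standard control morpholino (std MO) or with a morpholino against irf8 (irf8 MO), a transcription factor needed to form macrophages, and both groups carried the same transgene and went through the same dissociation and sort. On each of the 5 plates wells 1 to 188 held std MO cells and wells 189 to 384 held irf8 MO cells, so that morpholino and place on the plate changed together and could be told apart only within a morpholino. How many embryos were pooled, and whether the plates came from separate clutches, was not stated in the sources used here. The plate was taken as the replicate, and errors and p-values between morpholinos measure the spread between plates. In the test of place both morpholinos of a plate entered as separate pairs, so errors and p-values there measure the spread between pairs.

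Wells with at least 1000 transcripts were kept, 467 of 940 for std MO and 466 of 980 for irf8 MO, with 34 to 151 and 10 to 143 per plate. The median kept well held 4763 transcripts in std MO and 6910 in irf8 MO. Summed per plate and morpholino, the kept wells held 91111 to 2078160 transcripts. A single well gave 48.6% of the std MO sum of plate 3, and another gave 37.3% of the irf8 MO sum of plate 5, which rested on 10 wells. The number of transcripts of IRF8 itself was 4 in 3 std MO wells and 12 in 7 irf8 MO wells. The knockdown was not checked from these values. No kept well repeated the values of another.

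FOS, JUN and JUNB are subunits of AP-1, a dimeric transcription factor, and together with egr1, ATF3 and IER2 they belong to the immediate-early genes, which are transcribed within minutes of a stimulus such as growth factors, wounding, stress or the dissociation of a tissue, without new protein synthesis. Other members act as brakes: cdkn1a encodes the p21 inhibitor of cyclin-dependent kinases, BTG1 is an antiproliferative protein that recruits the CCR4-NOT deadenylase, and ZFP36L1 binds AU-rich elements and hastens decay of the mRNAs that carry them. nfkbiaa encodes an IκBα inhibitor that holds NF-κB in the cytoplasm and is itself induced by NF-κB, so that in mammals its transcript is a common readout of NF-κB activity.

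All 12 rows had transcripts in kept wells, from 166 for fosaa to 12100 for FOS. FOS was found in 74.0% of kept wells, BTG1 in 71.0% and JUN in 68.4%. ATF3 and JUNB were found in 41.8% and 41.4% of wells, and the remaining rows in 7.50% (fosaa) to 28.2% (ier2b). No member drew more than 10.2% of its transcripts from 1 well, the largest share being that of cdkn1a. In the 987 wells with fewer than 1000 transcripts, which were left out and had a median of 106, FOS stood at 1023 CPM, against 1253 in kept wells, and BTG1 at 637 against 448. CPM is the number of transcripts of a gene per 1000000 gene transcripts of the wells concerned, with no correction for gene length, so the levels of different genes are not compared. All intervals of such levels cover counting error only.

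The kept wells were sorted into kinds of cell by clustering from which all members and their pathway genes had been left out, and the sorted population was far from HSPCs alone. Erythroid-like wells made up 45.7% of kept wells (426 wells, 15 of 17 erythroid markers in each of 2 clusters), muscle-like wells 14.4% (134 wells), neural- and endocrine-like wells 9.32% (87 wells), cartilage- and connective tissue-like wells 7.93% (74 wells), epidermis-like wells 4.07% (38 wells), thrombocyte-like wells 1.39% (13 wells) and neutrophil-like wells 1.18% (11 wells). A cluster of 115 wells led by LCP1 and CCR9 had 3 of 10 HSPC markers, 2 of 9 lymphoid markers and CEBPB among its leading genes. It also had 2 of 6 neutrophil markers (lyz and srgn), 1 of 12 macrophage markers (LCP1) and 2 of 17 erythroid markers. This cluster was left without a cell type name. A further 35 wells were led by FABP7 and are also called by their leading gene. Other named kinds held markers of further cell types too. Epidermis-like wells had 8 of 9 epidermis, 7 of 13 connective tissue and 3 of 12 cartilage markers. Muscle-like wells had 13 of 15 muscle, 5 of 9 epidermis, 5 of 12 lens and 5 of 17 erythroid markers. Cartilage- and connective tissue-like wells had 11 of 13 connective tissue, 7 of 12 cartilage, 5 of 17 erythroid and 4 of 15 muscle markers. All but 1 of the erythroid-like wells came from plates 1, 2 and 4.

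JUNB, JUN, egr1 and ATF3 had their highest levels in cartilage- and connective tissue-like, epidermis-like and FABP7-led wells, while the order of the kinds differed for FOS and ier2b. FOS was highest in the FABP7-led wells (3294 CPM, 95% counting interval 3130 to 3460) and in the cartilage- and connective tissue-like wells (3202, 3090 to 3310), which did not differ beyond the spread of the plates (2248 to 4235 over 3 plates and 2653 to 4240 over 5 plates with at least 5 such wells). It was lowest in the erythroid-like wells (310, 287 to 335, with 287 to 332 over 3 plates) and in the 11 neutrophil-like wells (224, 159 to 306). Between these came thrombocyte-like (1802), epidermis-like (1411), muscle-like (1320), neural- and endocrine-like (1047) and LCP1- and CCR9-led wells (607). The plate ranges of the epidermis-like (531 to 1783), muscle-like (1046 to 1554) and neural- and endocrine-like wells (619 to 1416) overlapped. A FOS transcript was found in 100% of the 74 cartilage- and connective tissue-like wells and in 59.2% of the erythroid-like wells. After each well was thinned to 1000 transcripts, so that total depth was equal, these shares were 81.1% and 24.2%. Globin was among these transcripts, with 9.76% of all transcripts in cartilage- and connective tissue-like and 52.4% in erythroid-like wells. Depth was thus not equal for the other genes.

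JUNB, JUN, egr1 and ATF3 were all highest in the cartilage- and connective tissue-like wells, with 844, 1197, 557 and 1026 CPM. Epidermis-like wells came next for JUNB (620), JUN (876) and ATF3 (808), and FABP7-led wells for egr1 (387). For each of these 4 genes the plate range of the next kind overlapped that of the cartilage- and connective tissue-like wells, for JUNB with 399 to 976 against 669 to 1134 and for egr1 barely, with 275 to 464 against 457 to 777. In erythroid-like wells the levels were 37.8 for JUNB, 11.7 for egr1 and 76.6 for ATF3, with plate ranges of 32.9 to 42.3, 10.6 to 12.8 and 54.5 to 96.5 that lay below every plate of the cartilage- and connective tissue-like wells. ier2b differed in that the epidermis-like wells were highest (361 CPM, 165 to 432 over 5 plates), followed by cartilage- and connective tissue-like wells (222, 168 to 274). The second FOS row, fosaa, was sparse in every kind, with 0 to 49.5 CPM.

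JUN differed from the other immediate-early genes in erythroid-like wells, where it stood at 414 CPM (387 to 442), above its level in LCP1- and CCR9-led wells (342, 309 to 378) and in neutrophil-like wells (97.5, 56.8 to 156). Its plate ranges in erythroid-like wells (362 to 502) and LCP1- and CCR9-led wells (210 to 356) did not overlap. These values pool both morpholinos, and the order held in std MO alone (321 in erythroid-like and 231 in LCP1- and CCR9-led wells) but turned in irf8 MO (480 and 559). With the kept wells of all 5 plates summed, the log2 ratio of erythroid-like to all other wells was -0.56 for JUN, against -2.29 for FOS and -4.05 for egr1. On plates 1, 2 and 4 alone it was -0.5, -0.45 and -0.76 for JUN (SD 0.16, n = 3). For FOS it was -2.44, -2.22 and -2.14 (SD 0.16), and for egr1 -3.94, -4.13 and -3.79 (SD 0.17, n = 3 each). Globin genes took 52.4% of the transcripts of erythroid-like wells, which lowers the share of every other gene there. With globin left out of the total the ratio of JUN became 0.40 and that of BTG1 rose from -1.05 to -0.09, whereas FOS (-1.34) and egr1 (-3.16) remained lower in erythroid-like wells.

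The number of immediate-early genes found per well followed the same division. It rises with the share of wells holding each gene, so it does not by itself show that the genes went together. Globin counted towards the 1000 transcripts here too. Of 6 immediate-early genes (FOS, JUN, JUNB, egr1, ier2b and ATF3), 3 or more were found together in 60.8% of cartilage- and connective tissue-like wells thinned to 1000 transcripts, in 51.4% of FABP7-led wells and in 47.4% of epidermis-like wells. The share was 11.2% in muscle-like wells, 10.4% in LCP1- and CCR9-led wells and 2.11% in erythroid-like wells, and 50.2% of the erythroid-like wells had none of the 6. Among the thinned cartilage- and connective tissue-like wells egr1 was found in 46.7% of the 60 wells with FOS and in 21.4% of the 14 wells without it. For JUN these shares were 71.7% and 42.9%. In thinned erythroid-like wells JUN was found in 32.0% of the 103 wells with FOS and in 26.0% of the 323 wells without it. For egr1 the shares there were 0.971% and 0.619%, for ier2b 0.971% and 0.929%, for JUNB 6.8% and 2.79%, and for ATF3 11.7% and 6.5%. These wells share plates and libraries, and the shares are given as a description.

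**Figure D1:**
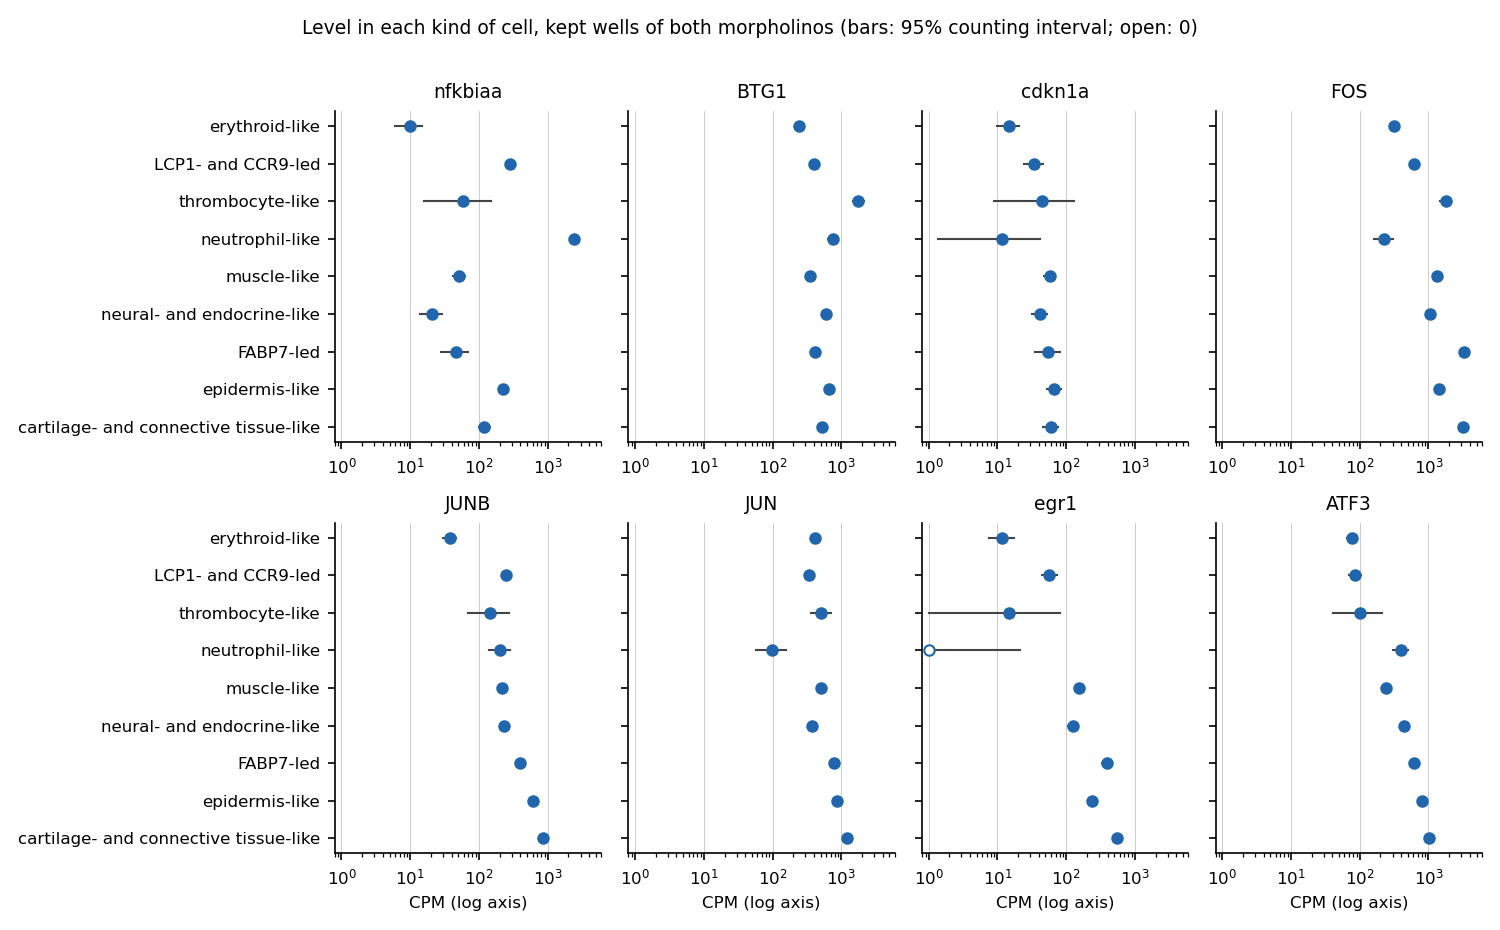
Level of 8 members in 9 kinds of cell, in CPM on a log axis, for kept wells of both morpholinos summed over 5 plates, with bars for the 95% counting interval and an open circle at the left edge for 0. FOS, JUNB, egr1 and ATF3 rise from erythroid-like to cartilage- and connective tissue-like wells, while nfkbiaa has its highest point at the neutrophil-like wells and BTG1 at the thrombocyte-like wells.

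The brake genes and nfkbiaa had other patterns. BTG1 was highest in the 13 thrombocyte-like wells (1772 CPM, 1470 to 2110), all of which had a BTG1 transcript even after thinning, and lay between 244 (erythroid-like) and 760 (neutrophil-like) elsewhere. On plate 4, the only plate with at least 5 neutrophil-like wells, the level there was 410. cdkn1a was low in every kind, from 11.5 CPM in neutrophil-like wells, a value that rested on 2 transcripts, to 66.9 in epidermis-like wells, and its plate ranges in the epidermis-like (39.8 to 101), cartilage- and connective tissue-like (21.0 to 126) and muscle-like wells (0 to 73.5) overlapped. The rows of ZFP36L1 were highest in cartilage- and connective tissue-like wells, with 272 CPM for ENSDARG00000016154 and 307 for ENSDARG00000021443. They parted in LCP1- and CCR9-led wells, where the former stood at 75.3 (60.2 to 93.0) and the latter at 16.6 (10.0 to 26.0).

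nfkbiaa was concentrated in few wells. The 11 neutrophil-like wells held 415 of its 1281 transcripts, 32.4%, while they gave 1.81% of all transcripts, and stood at 2381 CPM (2160 to 2620). Next were LCP1- and CCR9-led wells with 287 CPM (222 to 372 over 3 plates), epidermis-like wells with 221 (108 to 334 over 5 plates) and cartilage- and connective tissue-like wells with 120, where 52 transcripts of plate 2 came from 1 well. In erythroid-like wells 21 transcripts among 426 wells gave 9.80 CPM.

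The genes whose pattern was most like that of each member were sought over the 22 sums of a kind of cell and plate with at least 10 wells, by Pearson's r of log2(CPM + 10) among 4670 genes. No plate had 10 neutrophil-like, thrombocyte-like or epidermis-like wells, so the sums do not cover these kinds. Neutrophil-like and epidermis-like wells held 32.4% and 18.3% of the nfkbiaa transcripts. egr1 was the gene most like FOS (r = 0.967), and FOS the one most like egr1. JUNB was the most like the ZFP36L1 row ENSDARG00000016154 (r = 0.917), and FOSL1, another AP-1 gene, the most like ENSDARG00000021443 (r = 0.931). GADD45B led for ier2b (0.893), GPC4 for ATF3 (0.947), MMP14 for JUN (0.840), selenot1b for nfkbiaa (0.825), ENSDARG00000088371 for JUNB (0.951) and ENSDARG00000040346 for BTG1 (0.850, followed by kras with 0.847), and SLC20A1 was second for cdkn1a (0.688). Over these sums, nfkbiaa and cdkn1a stood apart among the members. With the other members nfkbiaa had r from -0.17 (ATF3) to 0.55 (ier2b), and cdkn1a from -0.146 (BTG1) to 0.415 (FOS). The 22 sums share plates, and those of 1 kind share its genes, so these values are a description.

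Between the morpholinos, nfkbiaa and BTG1 were lower and cdkn1a was higher in irf8 morphants on all 5 plates. Of the 7995 genes with at least 100 transcripts in kept wells 5.77% were lower and 3.54% higher on all 5, and nothing is read from the members' count, since they were chosen on this contrast. nfkbiaa stood at 176, 364, 50.7, 244 and 115 CPM on plates 1 to 5 in std MO and at 78.9, 91.3, 13.9, 101 and 11.0 in irf8 MO. The value of 11.0 on plate 5 rested on 1 transcript. The irf8 MO value was the lower one on each plate, although the groups overlapped, since plate 3 was low in both. The log2 fold change fitted by edgeR with the plate as a block was -1.72 (SE 0.31), from group means of 190 ± 121 and 59.2 ± 43.4 (SD, n = 5 each). With each well thinned to 1000 transcripts, so that wells counted equally, it was -0.71 (SE 0.32). In such sums fewer cells of a kind and less RNA of a gene per cell cannot be told apart.

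BTG1 stood at 476, 565, 788, 484 and 720 CPM on plates 1 to 5 in std MO and at 346, 373, 487, 301 and 659 in irf8 MO. The groups overlapped, and plate 5 differed least. The log2 fold change was -0.54 (SE 0.15), with means of 607 ± 141 and 433 ± 144 (SD, n = 5 each). Without the single largest well of each sum BTG1 was lower on 4 of 5 plates.

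cdkn1a stood at 36.0, 47.4, 30.4, 18.4 and 22 CPM in std MO and at 51.7, 49.5, 65.9, 47.7 and 43.9 in irf8 MO. The irf8 MO value was the higher one on each plate, by least on plate 2, and the groups overlapped. The log2 fold change was 0.76 (SE 0.30), and it was 0.35 (SE 0.34) without the top 2% of wells by transcripts. Without the single largest well of each sum cdkn1a was higher on 4 of 5 plates (means of 29.3 and 39.8). On plates 3 and 4 a single well held 47.4% and 42.5% of the cdkn1a transcripts of irf8 MO, and 44.5% and 47.1% of those of std MO. On plate 5 a single well held 75% of the 4 transcripts of irf8 MO and 66.7% of the 12 of std MO. With the 5 plates summed, muscle-like wells gave 3.22 CPM of cdkn1a in std MO and 18.7 in irf8 MO. They made up 8.14% and 20.6% of kept wells. Within kinds cdkn1a was lower in irf8 MO in erythroid-like (19.2 and 11.1 CPM) and LCP1- and CCR9-led wells (42.4 and 18). It was higher in muscle-like (28.7 and 66.3) and neural- and endocrine-like wells (23.7 and 57.8), and the other kinds moved in both directions. The part of the mix of kinds was not tested.

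The ZFP36L1 row ENSDARG00000021443 stood at 28.5, 89.8, 65.9, 66.2 and 161 CPM in std MO and at 63.3, 106, 212, 64.1 and 297 in irf8 MO. It was higher in irf8 MO on 4 of 5 plates, and on 5 of 5 after TMM scaling, with a log2 fold change of 0.74 (SE 0.28). The row ENSDARG00000016154 was higher on 3 of 5 plates, with -0.12 (SE 0.23), and -1.16 (SE 0.39) with each well thinned to 1000 transcripts. Of the 297 CPM of the former on plate 5, 85.2% of the transcripts lay in 1 well.

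For FOS, JUN, JUNB, egr1, ier2b and ATF3 the means of the morpholinos differed by less than the larger SD between plates. FOS stood at 1007, 1217, 1226, 981 and 1841 CPM in std MO and at 1462, 1148, 1801, 1138 and 2407 in irf8 MO, higher on 4 of 5 plates. Plate 5 was high in both groups, and the log2 fold change was 0.29 (SE 0.17), and 0.00 (SE 0.20) without the top 2% of wells by transcripts. The log2 fold changes of the others were 0.27 (SE 0.18) for JUN, 0.36 (SE 0.26) for ATF3, 0.12 (SE 0.25) for JUNB, 0.09 (SE 0.22) for egr1, -0.14 (SE 0.24) for ier2b and 0.95 (SE 0.51) for fosaa, which had 166 transcripts in all.

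Across all genes, edgeR's quasi-likelihood test called 1 of 7141 between morpholinos at an adjusted p of 0.05, 0.014% of those tested, and 0 of the 12 members, from which nothing is read since the members were chosen on this contrast. An unadjusted p under 0.05 was reached by 671 genes. DESeq2 called 219 of 7141 genes, nfkbiaa and BTG1 among them, and edgeR called 356 of 23467 with no filter on low counts, nfkbiaa among them. Where every sum had to hold 10 counts of a gene edgeR called 114 of 1187, BTG1 among them. Nothing is read from these calls of members either, for the same reason.

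**Figure D2:**
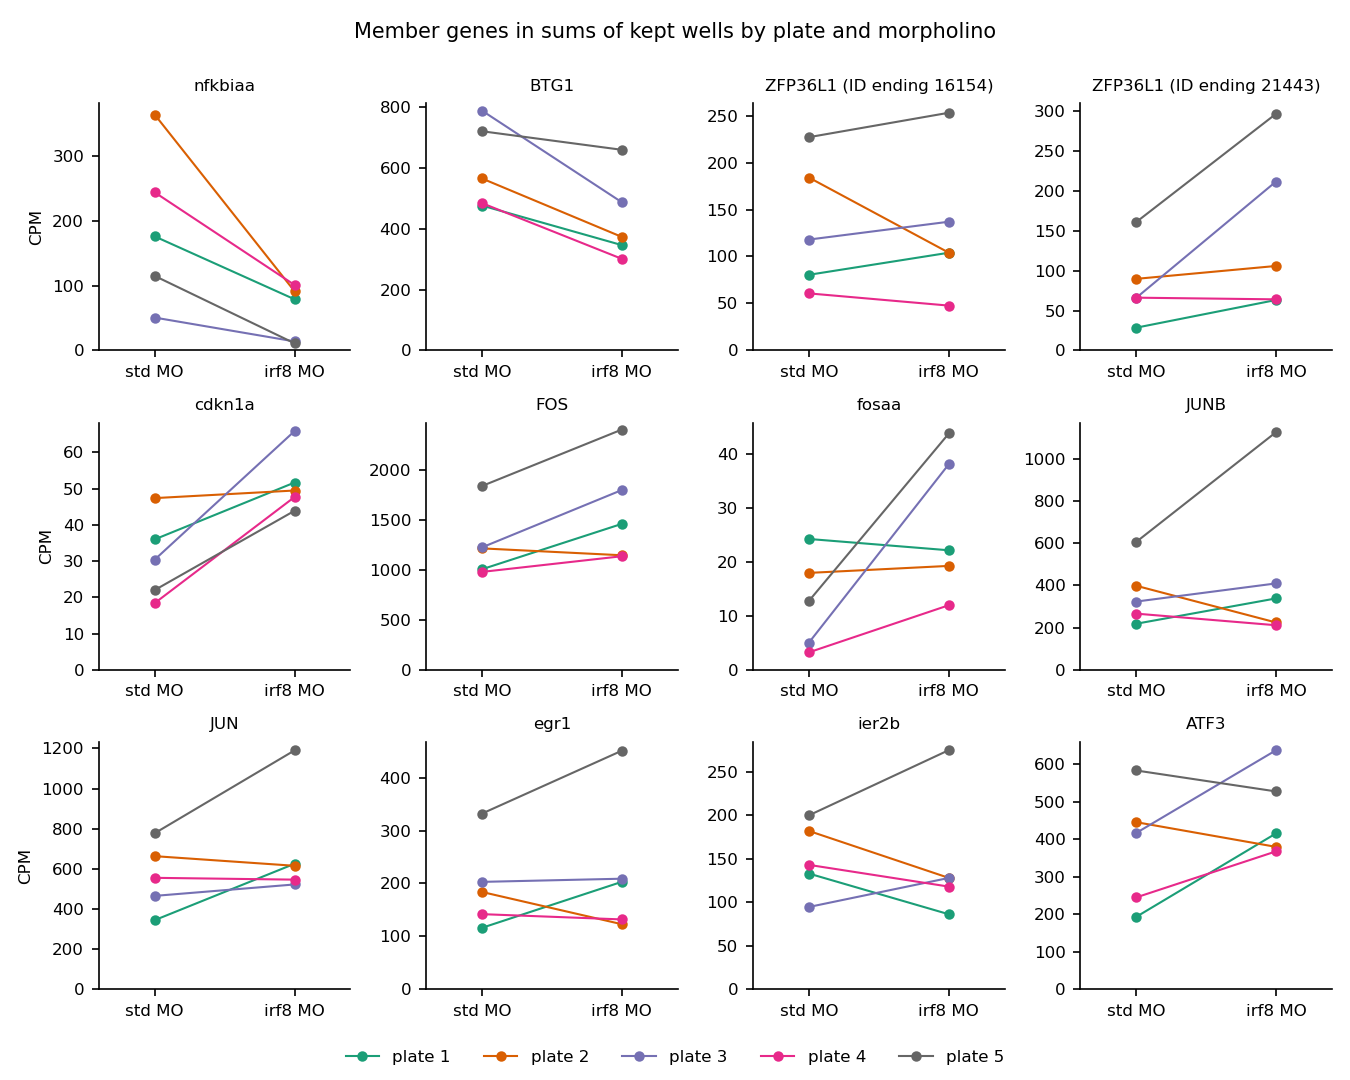
The 12 rows in sums of kept wells, in CPM, with std MO on the left and irf8 MO on the right of each panel and a line for each of the 5 plates. All 5 lines fall for nfkbiaa and BTG1 and all 5 rise for cdkn1a, while those of FOS, JUN, JUNB, egr1, ier2b and ATF3 run in both directions, with plate 5 highest in most panels.

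With the 5 plates summed, the difference in nfkbiaa lay mainly in the neutrophil-like and the LCP1- and CCR9-led wells. This does not hold for plates 3 and 5, where nfkbiaa was also lower in irf8 MO. Each had 0 neutrophil-like wells, and 0 std MO and 1 irf8 MO well of the LCP1- and CCR9-led kind. On plate 4 a single well held 46.7% of the nfkbiaa transcripts of std MO. In std MO 304 nfkbiaa transcripts lay in 7 neutrophil-like wells and 248 in 79 LCP1- and CCR9-led wells, 37.3% and 30.5% of those of std MO. In irf8 MO 112 transcripts lay in 4 neutrophil-like wells and 79 in 36 LCP1- and CCR9-led wells, 23.9% and 16.9%. The share of LCP1- and CCR9-led wells among kept wells was 16.9% in std MO and 7.73% in irf8 MO. Within these wells nfkbiaa stood at 191, 470 and 355 CPM on plates 1, 2 and 4 in std MO and at 303, 219 and 137 in irf8 MO, lower on 2 of 3 plates.

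Without the neutrophil-like wells the log2 fold change of nfkbiaa was -1.40 (SE 0.36), and without the erythroid-like wells -1.74 (SE 0.31). Markers of neutrophils and macrophages moved with it. All 6 neutrophil marker rows had transcripts, and their summed share of transcripts was 0.00476% to 0.440% over the std MO sums (median 0.379%) and 0.000693% to 0.237% over the irf8 MO sums (median 0.0786%). All 28 macrophage marker rows had transcripts too, with 0.00388% to 0.0360% (median 0.0315%) and 0.00607% to 0.0143% (median 0.00956%). Of these rows LCP1, which other leukocytes use as well, had 612 transcripts in std MO and 346 in irf8 MO, while marco had 2 and 1, and no macrophage-like cluster was found. Not all rows had fewer transcripts in irf8 MO. Of the macrophage list SLC40A1 had 71 and 80 transcripts and HMOX1 18 and 26. Of the neutrophil list MMP9 had 101 and 169 and mmp13a 252 and 291. These numbers are not corrected for depth, and the median kept well held 4763 transcripts in std MO and 6910 in irf8 MO. A higher number is therefore not by itself a higher share of transcripts. An MFAP4 row (ENSDARG00000088745) had 123 and 1, and all these rows are named after their values were seen. Their part in the difference beyond the value without neutrophil-like wells was not tested.

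**Figure D3:**
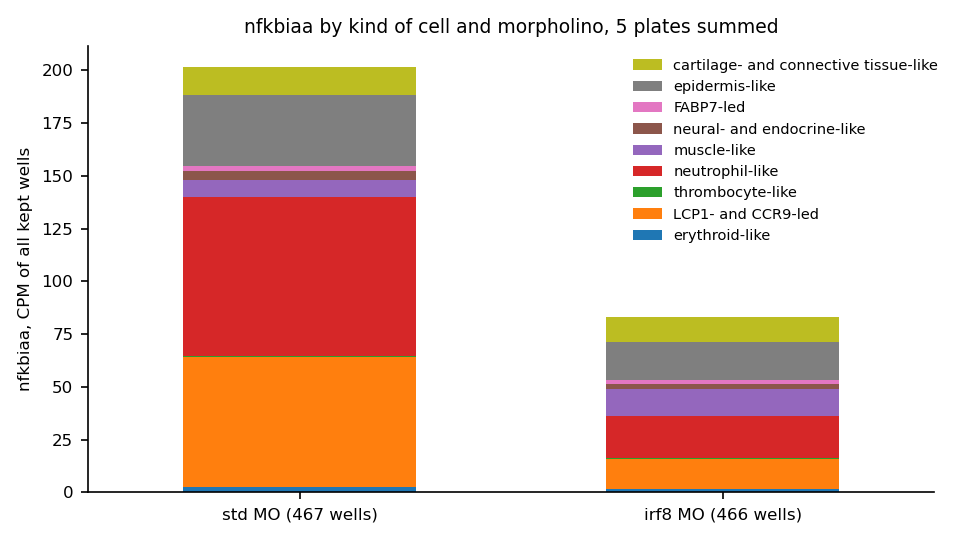
nfkbiaa in CPM of all kept wells, stacked by the kind of cell they came from, for 467 std MO and 466 irf8 MO wells of 5 plates. Neutrophil-like wells give 75.2 and 19.8 CPM in std MO and irf8 MO, and LCP1- and CCR9-led wells 61.6 and 14.1.

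Other genes of the NF-κB pathway were mostly lower in irf8 MO. Of 10 tested genes of the NF-κB list 9 were lower, with a median log2 fold change of -0.79, against a median of -0.03 over all 7141 genes, of which 52.9% were lower. None was called by edgeR, and 3 had an unadjusted p under 0.05. nfkbiab, the paralog of nfkbiaa, had a log2 fold change of -0.77 (SE 0.28), with 1618 CPM in neutrophil-like wells and 24.7 in erythroid-like wells. REL had -0.98 (SE 0.42), with 189 and 2.33 CPM in these kinds of cell, and ikbkg -0.81 (SE 0.33), with 74.6 and 15.4. All 3 genes had their highest level in neutrophil-like wells, and they are named after their values were seen. The part of the mix of kinds of cell in these fold changes was not tested. Of 51 tested genes of the immediate-early and dissociation-response list 30 were higher (median 0.13), of 23 genes of the cell-cycle brake list 12 were higher (median 0.01), and of 12 genes of the ZFP36 family and mRNA decay 4 were higher (median -0.12), with none called in any list by edgeR and 7, 2 and 0 at an unadjusted p under 0.05.

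In erythroid-like wells, the largest kind, BTG1 was lower and FOS higher in irf8 MO. On plates 1, 2 and 4 BTG1 stood at 346, 335 and 440 CPM in 81, 63 and 77 std MO wells and at 167, 173 and 117 in 53, 84 and 67 irf8 MO wells. The groups did not overlap, as for 6.28% of those 7995 genes in the lower direction and 14.3% in the higher one. Those genes were chosen by their transcripts over all kept wells, so the shares are not matched for level in erythroid-like wells. The log2 fold change was -1.49 (SE 0.18), larger in size than over all kept wells.

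FOS stood at 194, 202 and 241 CPM in std MO and at 388, 393 and 355 in irf8 MO. Here too the groups did not overlap, and the log2 fold change was 0.65 (SE 0.15). JUN was higher on plates 1 (241 and 515) and 2 (297 and 598) and lower on plate 4 (421 and 319), with a log2 fold change of 0.36 (SE 0.20). ATF3 had 0.67 (SE 0.32), from 43.2, 78.5 and 34.8 to 66.8, 105 and 103 CPM.

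Erythroid-like wells differed between morpholinos at large. edgeR called 538 of 1691 genes there (31.8%), and 2 of the 5 members it could test, BTG1 and FOS. That share is near the background, and nothing is read from it. These wells also held more transcripts in irf8 MO (medians of 5352, 5341 and 6398 on plates 1, 2 and 4, against 3956, 3684 and 3949). Markers of dividing cells moved as well, with 2 or more such transcripts after thinning in 15.1%, 23.8% and 16.4% of irf8 MO wells and in 3.70%, 1.59% and 1.30% of std MO wells. Over all kept wells the 15 dividing-cell marker rows took 0.0514% to 0.132% of transcripts in std MO sums and 0.0534% to 0.157% in irf8 MO sums.

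With depth made equal by thinning, BTG1 was found in 33.3%, 28.6% and 27.3% of std MO wells and in 11.3%, 15.5% and 17.9% of irf8 MO wells. In wells with fewer than 2 dividing-cell transcripts BTG1 stood at 364, 341 and 445 CPM in std MO and at 152, 202 and 112 in irf8 MO. In the same wells FOS went from 205, 198 and 237 to 408, 499 and 415. In the 8, 20 and 11 irf8 MO wells with 2 or more, FOS stood at 320, 173 and 136 and BTG1 at 218, 114 and 136. Only 3, 1 and 1 std MO wells had 2 or more, too few to set beside them. The erythroid-like wells fell into 2 clusters divided mainly by plate, and within the cluster that held most such wells of plates 1 and 2 BTG1 went from 349 and 335 to 156 and 179. In the other, on plate 4, it went from 429 to 117.

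The levels in erythroid-like wells were also followed along the wells of each morpholino. In 4 consecutive stretches of wells BTG1 stood at 414, 315, 404 and 356 CPM in std MO and 140, 165, 152 and 146 in irf8 MO. FOS stood at 237, 208, 175 and 231 and then at 414, 321, 348 and 458. JUN lay between 249 and 450 in the first 7 stretches and reached 852 in the last irf8 MO stretch, from 883 on plate 1 and 1114 on plate 2, against 282 on plate 4. Between later and earlier wells within a morpholino, the log2 fold change in erythroid-like wells was -0.07 (SE 0.18) for BTG1, 0.00 (SE 0.16) for FOS and 0.22 (SE 0.17) for JUN, with edgeR adjusted p of 0.996, 0.997 and 0.992. Over all kept wells FOS in irf8 MO stood at 1681, 1301, 1187 and 623 CPM in the 4 stretches, and on plates 1, 2 and 4 the last stretch was the lowest (739, 524 and 565). In that last stretch 48 of 85 kept wells were erythroid-like, against 42 of 120 in the first, and the part of this in the FOS values was not tested.

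**Figure D4:**
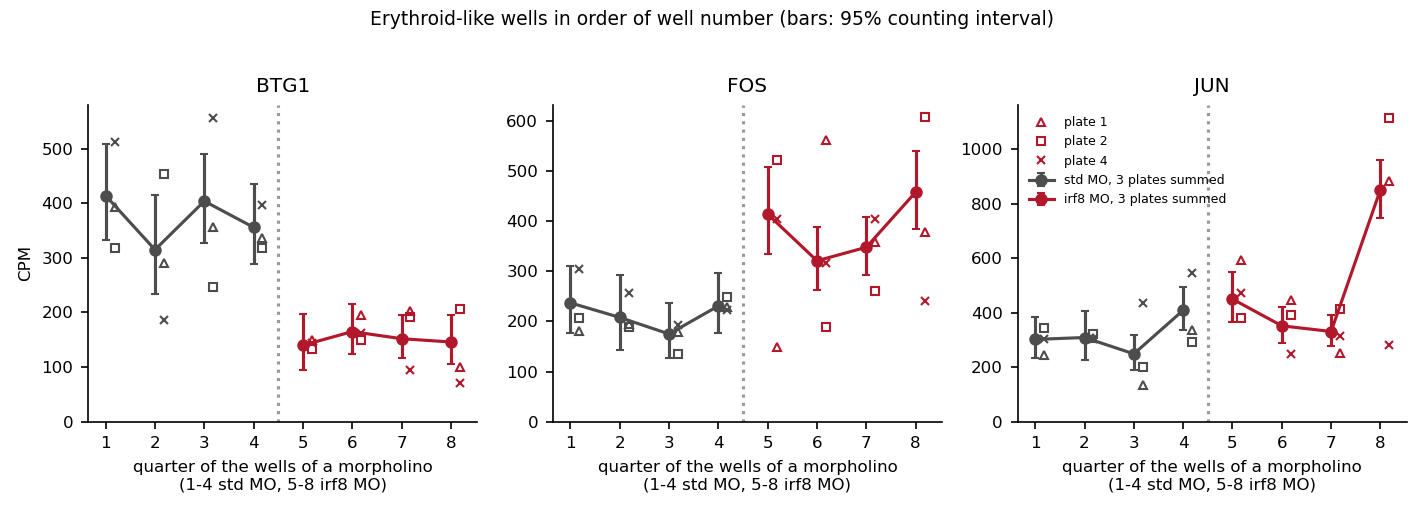
BTG1, FOS and JUN in erythroid-like wells of plates 1, 2 and 4, in CPM, in 8 consecutive stretches of wells (1 to 4 std MO, 5 to 8 irf8 MO, divided by a dotted line). Filled circles are the 3 plates summed with 95% counting intervals, and small symbols are single plates. BTG1 steps down at the line, from 356 to 140, and FOS steps up from 231 to 414.

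In other kinds of cell the morpholino values of the members did not all follow those of the erythroid-like wells. BTG1 was also lower in irf8 MO on all 4 plates with enough neural- and endocrine-like wells (means of 718 ± 270 and 512 ± 153, SD, n = 4). The same held on all 3 with enough cartilage- and connective tissue-like wells (703 ± 24.3 and 457 ± 193, SD, n = 3). In LCP1- and CCR9-led wells it was higher on 2 of 3 plates (380 ± 81.9 and 474 ± 133, SD, n = 3). In neural- and endocrine-like wells cdkn1a, ATF3 and the ZFP36L1 rows were higher in irf8 MO on all 4 plates. ATF3 had means of 182 ± 76.1 and 708 ± 403 there, and ENSDARG00000021443 had 14.6 ± 20.1 and 156 ± 138 (SD, n = 4 each). The share of all genes moving so was not computed for the neural- and endocrine-like or the LCP1- and CCR9-led wells, and nothing is read from these directions. FOS, higher in erythroid-like wells, was lower in cartilage- and connective tissue-like wells, with 5265, 3714 and 4687 CPM on plates 2, 3 and 4 in std MO and 2128, 3141 and 2065 in irf8 MO. There egr1 (994 ± 173 and 371 ± 103), JUNB (1164 ± 383 and 555 ± 134) and JUN (1642 ± 557 and 839 ± 150, SD, n = 3 each) were lower on 3 of 3 plates as well, so that 5 of 12 members were lower on every plate there and 0 higher. Of the 7995 genes with at least 100 transcripts in kept wells 9.68% were lower and 16.1% higher on every plate there. These shares are not matched for level in the cartilage- and connective tissue-like wells. Nothing is read from the members' count, since the contrast is the one they were chosen on. These groups held 5 to 9 wells per plate and morpholino, and 1 well gave 82.1% of the FOS transcripts of the irf8 MO group of plate 2. In LCP1- and CCR9-led wells FOS was higher on 3 of 3 plates (379, 606 and 655 against 691, 710 and 758) and cdkn1a lower on 3 of 3, from 24.8, 68.2 and 38.0 to 9.17, 26.5 and 10.5, values that rest on 1 to 16 transcripts.

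Place on the plate within a morpholino is a separate contrast from that between morpholinos, and here the members were tested, although not all values on which they had been picked are known. Wells 1 to 94 were set against 95 to 188 for std MO, and 189 to 286 against 287 to 384 for irf8 MO, over 9 pairs of sums. The pairs of a plate's std MO and irf8 MO wells were treated as independent, so 9 pairs are not 9 plates. The irf8 MO wells of plate 5 were left out, since one side held fewer than 5 kept wells. edgeR called 0 of 4172 genes (0%), with 222 at an unadjusted p under 0.05, and 0 of the 11 members it could test. DESeq2 called 7 genes and none of the members.

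BTG1 had a log2 fold change of 0.08 from earlier to later wells (SE 0.14, interval of 2 SE from -0.20 to 0.36, edgeR adjusted p = 0.979), with means of 521 ± 162 and 521 ± 238 CPM (SD, 9 pairs) and a higher value in later wells in 4 of 9 pairs. For FOS it was -0.09 (SE 0.19, -0.48 to 0.30), for JUN 0.19 (SE 0.17, -0.14 to 0.52), for JUNB 0.10 (SE 0.17, -0.24 to 0.44) and for ATF3 0.05 (SE 0.20, -0.36 to 0.45). The ends of these intervals lay no farther from 0 than 0.52, that of JUN. The intervals were wider for nfkbiaa (0.02, -0.77 to 0.82), egr1 (0.35, -0.18 to 0.89), cdkn1a (0.27, -0.33 to 0.88), ier2b (0.23, -0.39 to 0.85) and the ZFP36L1 rows ENSDARG00000016154 (-0.03, -0.77 to 0.71) and ENSDARG00000021443 (-0.51, -1.36 to 0.33).

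The edgeR adjusted p of these members lay between 0.910 and 0.999. With the morpholino compared over neighbouring wells only, std MO wells from 95 against irf8 MO wells up to 286, the log2 fold change was -0.59 (SE 0.21) for BTG1 and -1.56 (SE 0.55) for nfkbiaa, and 0.39 (SE 0.42) for cdkn1a. In the same fit the ZFP36L1 row ENSDARG00000021443 had 1.28 (SE 0.48), ier2b -0.61 (SE 0.39) and egr1 -0.23 (SE 0.32), and the signs of egr1 and JUNB (-0.10, SE 0.28) differed from those over all wells.

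Whether place mattered differently in the 2 morpholinos was tested in the same fit, and edgeR called 0 of 4172 genes (0%), with 151 at an unadjusted p under 0.05, and 0 of 11 members. egr1 had the smallest p of the members (0.0209 unadjusted, edgeR adjusted 0.998), with a log2 fold change from earlier to later wells of 0.89 in std MO and -0.27 in irf8 MO. For ATF3 the values were 0.41 and -0.40 (unadjusted p = 0.0372, edgeR adjusted 0.998). The signs were opposite for 8 of the 11 members, positive in std MO for all of these but nfkbiaa. The share of the 4172 genes with opposite signs was not computed. Members were also correlated with each other over kinds of cell (FOS and egr1 with r = 0.967), so nothing is read from this count.

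Of the pathway lists 44 immediate-early and dissociation-response genes, 5 NF-κB genes, 14 genes of the cell-cycle brake list and 10 ZFP36 and decay genes could be tested for place, and 0 were called by edgeR, with 4 of the first list and 0 of the others at an unadjusted p under 0.05. CEBPB, a stress- and cytokine-responsive transcription factor, had 0.71 (SE 0.21, edgeR adjusted p = 0.740) and mcl1a, an antiapoptotic gene with a short-lived mRNA, 0.37 (SE 0.12, edgeR adjusted p = 0.782). The smallest p of the NF-κB list was that of TNFAIP3 (-0.19, SE 0.27), followed by ikbkg (-0.17, SE 0.34), and of the decay list that of elavl1a (-0.28, SE 0.16), followed by pabpc1a (0.18, SE 0.15).

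**Figure D5:**
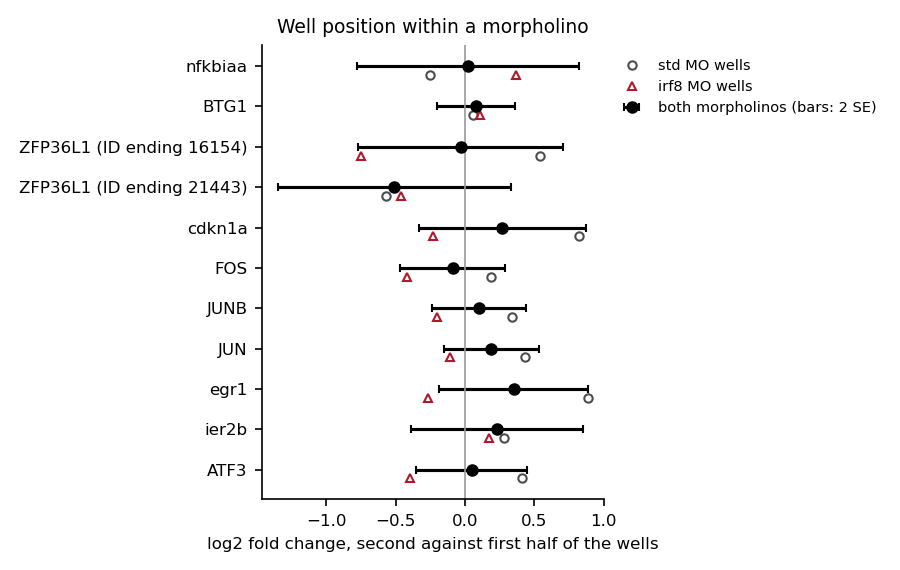
Log2 fold change from earlier to later wells within a morpholino for the 11 members tested, with bars of 2 SE for both morpholinos in one fit and open symbols for each morpholino. Every bar crosses 0, and the std MO symbol lies right of the irf8 MO symbol for most members, as for egr1 (0.89 and -0.27). Nothing is read from the number of such members.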

How the data were processed

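The deposited values were expected counts: the authors mapped the reads (BWA, Seurat and GRCz11 are named in the submitters' processing notes, with no role or version), counted molecular barcodes per gene and well, and corrected them for barcodes used more than once, so that the estimated counts of transcripts need not be whole. Inverting that correction with a pool of 4096 barcodes gave whole numbers for 100% of values, within a tolerance of 1e-06. Values were not scaled for depth. Spike-ins (6.31% of transcripts of kept wells) were left out. Sequences were not analysed here. Gene names came from a table that gave a symbol to 18186 of 23628 IDs.

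Wells with at least 1000 transcripts were clustered with scanpy 1.11.5 and igraph 0.11.9 (2000 variable genes without the members and pathway genes, 30 components, 15 neighbours, resolution 1), and a cluster was named only from marker lists. No doublet caller was run. Counts were summed per plate and morpholino, rounded, and tested with edgeR 4.0.16 (quasi-likelihood, TMM, Benjamini-Hochberg adjustment, R 4.3.3), with DESeq2 1.42.0 as an alternative. Position was tested within each plate and morpholino. In the position fit plate and morpholino together were the block. In the morpholino fit the plate was the block, since each plate carries both groups: deviations of the sums of 1 plate correlated with r of 0.204, 0.331, 0.355, 0.325 and 0.126 over 7141 genes. On simulated data with 200 changed genes the position fit (4172 genes) called 80, 192 and 200 of them at log2 changes of 1, 2 and 4. The morpholino fit (7141 genes) called 1, 149 and 197. Unchanged genes called were 1, 4 and 3 in the position fit and 2, 15 and 7 in the morpholino fit. The simulated counts had no differences between plates other than depth, unlike the data. Kept wells summed to 91111 to 2078160 transcripts per plate and morpholino, and the smaller sums are less precise. All member rows with at least 100 transcripts are described in full. Of the pathway lists, genes called in a test were to be named, or else up to 2 per list with the smallest position p. Not every gene this rule names is reported here. For each member with at least 200 transcripts the 3 most correlated genes were found, and the report names at least 1 of them. The members and lists were chosen with earlier results of these data known.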

Additional observations from a re-analysis of the deposited data

Results flagged for a closer look

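Plate 5 stood apart from the other 4 plates in 5 of 24 groups of plates. Chance alone flags about 1 group in 20, or 1.2 of 24. The groups rest on the same sums and are not independent, so no excess over chance is read from this. In std MO this was FOS (1841 CPM), and in irf8 MO it was JUNB (1125), JUN (1190), egr1 (451) and ier2b (275). The irf8 MO sum of plate 5 holds 10 wells, of which 1 epidermis-like well gave 37.3% of the transcripts, and plate 5 had no erythroid-like wells. Without that well the irf8 MO levels were higher, with 1479 CPM for JUNB, 1812 for JUN, 685 for egr1 and 351 for ier2b. Of each gene's transcripts there, 1 well held 59% for JUNB, 50.1% for JUN, 75.7% for egr1 and 52% for ier2b. The part of the missing erythroid-like wells in these values was not tested.

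Some members were higher in irf8 MO on every plate in one kind of cell and lower on every plate in another. These differences between kinds were not tested. The share of all genes with such a pattern was not computed, so nothing is read from the number of members that had it. For FOS the ratio of the irf8 MO mean to the std MO mean was 1.79 in erythroid-like and 1.32 in LCP1- and CCR9-led wells, and 0.537 in cartilage- and connective tissue-like wells. For JUN it was 2 in LCP1- and CCR9-led and 0.511 in cartilage- and connective tissue-like wells. For cdkn1a it was 2.19 in neural- and endocrine-like and 0.352 in LCP1- and CCR9-led wells. All irf8 MO wells of the latter kind together held 7 cdkn1a transcripts. For the ZFP36L1 row ENSDARG00000016154 it was 3.41 in neural- and endocrine-like wells, 0.427 in erythroid-like wells, where the sums held 1 to 6 transcripts each, and 0.586 in LCP1- and CCR9-led wells.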

How the results depend on the processing

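Counts of genes called depended on the tool and the filter, and the cause was not tested. Between morpholinos, where edgeR called 1 gene, DESeq2 called 219, edgeR without a filter 356, with at least 10 counts in every sum 114, with each well thinned to 1000 transcripts 129, in erythroid-like wells alone 538 (an alternative added after seeing the data), and with neighbouring wells only or without the top 2% of wells 0. Leaving out 1 plate in turn gave 0 to 1, with 0 when plate 1, 2, 3 or 4 was left out. For place on the plate, where edgeR called 0 genes, DESeq2 called 7, edgeR without a filter 105 and erythroid-like wells alone 1 (added after seeing the data), and leaving out 1 plate gave 0 throughout.

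Without the replicate block, that is without pairing the sums of a plate, the counts were 0 between morpholinos and 1 for place. The block moved the log2 fold change of nfkbiaa for place from -0.54 to 0.02, and left no member called in either fit.

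The sign of the small place differences was not stable. For nfkbiaa it was -0.56 between the first and last stretches of a 3-way split, -0.03 without a filter, -0.25 in std MO alone and -0.46 without the top 2% of wells, with -0.32 to 0.45 as 1 plate was left out (-0.18 without plate 1, -0.32 without plate 3). For FOS it was 0.05 with thinned wells, 0.00 in erythroid-like wells alone, 0.11 in the 3-way split and 0.18 in std MO alone, with -0.22 to 0.06 as 1 plate was left out (0.06 without plate 1, 0.02 without plate 4). For BTG1 it was -0.01 with wells of at least 500 transcripts and -0.07 in erythroid-like wells alone, with 0.00 to 0.15, and for JUN -0.09 in irf8 MO alone, with 0.09 to 0.35. Between morpholinos, leaving out 1 plate gave -1.95 to -1.52 for nfkbiaa, -0.57 to -0.50 for BTG1 and 0.53 to 0.99 for cdkn1a. With each well thinned to 1000 transcripts nfkbiaa had -0.71, the ZFP36L1 row ENSDARG00000016154 -1.16 and egr1 -0.48, and the cause was not tested. Members with few transcripts, such as fosaa and cdkn1a, are limited by depth.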
